A study of Mus musculus with 96 samples.

Results

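The RNA of 7 enzymes that write, keep or remove DNA methylation was followed in primary mouse embryonic fibroblasts that were starved and then given serum. The members were chosen by gene symbol from the table of 15895 genes, and all 7 were listed. They comprised 2 maintenance genes (Dnmt1 and Uhrf1), 2 de novo methyltransferases (Dnmt3a and Dnmt3b) and 3 demethylating dioxygenases (Tet1, Tet2 and Tet3). The cells were CF-1 fibroblasts from embryonic day 13, kept for 36 h in 0.5% fetal calf serum (FCS), after which FCS was raised to 20%. No other agent or genotype was used, and the starved libraries, taken at -1 h and 0 h, had the same starvation as all the others. Cycle 1 held 63 of the libraries used and ran to 38 h, partly at intervals of 0.5 h. Cycle 2 held 32 and ran to 27 h. A further library was not used because its column name matched no label exactly. Each library was a single time point, so the replicates were the 2 Cycles at the 29 hours after serum that both had. The authors state that the 2 series may not have started together, and they estimated an offset between them for each gene. Here equal hours were paired with no offset, so the Cycles may differ in state at an hour. The labels name no separate cultures, and p-values measure only the spread between these libraries.

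DNA methylation in mammals lies mostly on the cytosine of CpG dinucleotides, and it is diluted when the genome is replicated. Uhrf1 binds hemimethylated DNA at replication forks and recruits Dnmt1, which copies the mark onto the new strand. Dnmt3a and Dnmt3b can methylate sites that carried no mark. Tet1, Tet2 and Tet3 oxidize 5-methylcytosine with oxygen and 2-oxoglutarate, which starts removal of the mark. Serum starvation halts fibroblasts in a quiescent state, and serum brings an immediate early response followed by entry into DNA replication.

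The libraries held 4351387 to 12545378 reads on the listed genes, with a median of 9378220. Values below are a normalized signal, the reads on the exons of a gene scaled to a common total for each library. All 8 fibroblast markers were listed, with a summed signal of 300747 to 380343 in the starved libraries and 162165 to 369289 after serum. The sum of the 5 listed blood and macrophage markers was 1043 to 3309 in starved cells and 460 to 4598 after serum. The endothelial, epithelial and muscle sums reached at most 272, 615 and 2180, and of 6 pluripotent and germ cell markers the table listed 3, with a summed signal of at most 86.4. All 6 sums had lower medians after serum than before, and their part in the results was not tested. In RNA from bulk cultures, fewer cells of a type and less RNA per cell cannot be told apart.

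The promoter sequences shown are the windows of Dnmt1 and Uhrf1 that held a match of the E2F type, chosen with that outcome known. All 7 genes matched entries of the RefSeq table, with 12 start sites in all, each taken from 250 bases before to 50 bases after the start. The start sites of that table are from GRCm38.p6. The windows were placed on NCBIM37 (mm9), the build of the files, by an exact match. E2F-type motifs were searched as TTTGGCGC, TTTCCCGC, TTTGGCGG, TTTCGCGC and TTTGGGCGC on both strands; E2F factors control many genes of DNA replication. At least 1 of them was found in 2.47% of all 32851 promoters and in 3.96% of the 14629 promoters of genes in the table. Dnmt1 held 2 matches at its start site 3 and Uhrf1 1 at its start site 2, shown here on the strand of each gene with the motif in capitals.
Dnmt1, chr9:20757018-20757047, NCBIM37, minus strand: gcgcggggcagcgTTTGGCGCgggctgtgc
Dnmt1, chr9:20757268-20757297, NCBIM37, minus strand: ggtttccgcgcGCGCGAAAaagccggggtc
Uhrf1, chr17:56443540-56443569, NCBIM37, plus strand: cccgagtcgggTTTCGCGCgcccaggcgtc
The first window lay in an intron of Dnmt1, and its motif began at +34 from the start used. The motif of the second, TTTCGCGC read on the opposite strand, began at -219, in an annotated exon and untranslated region. The Uhrf1 motif began at -185 from its start, in an intron of the transcripts annotated on this build. None of the 7 promoters of Dnmt3a, Dnmt3b, Tet1, Tet2 and Tet3 held these letters, which says only that they are not in these windows. With a match in 3.96% of the promoters of genes in the table, such absence is common and does not set these genes apart. Among 14 replication genes used for timing below, 11 matched the table, and 6 of their 12 promoters held a match. The GC box GGGCGG was in 10 of the 12 member promoters against 35.7% of all promoters and 58.8% of those of genes in the table. CCAAT was in 5 against 37.4% and 36.9%, TTTGAA in 2 against 17.9% and 12.1%, and the E-box CACGTG in 1 against 7.15% and 9.43%. The member windows held 51.3% to 82.3% G and C, beside a median of 52.7% over all promoters. The windows of start sites 1 and 2 of Dnmt3a overlap. The part of base composition and overlap in the GC box count was not tested. A match is a description and not a bound site.

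Before serum, Dnmt1 and Uhrf1 were higher in Cycle 2 than in Cycle 1, whereas Dnmt3a was lower. Dnmt1 (chr9:20711650-20757317, minus strand) was at 977 and 881 in the -1 h and 0 h libraries of Cycle 1 and at 1707 and 1650 in those of Cycle 2. Uhrf1 (chr17:56442744-56462909, plus strand) was at 224 and 231 in Cycle 1 and at 641 and 592 in Cycle 2. The Cycle 2 mean was 1.81 times that of Cycle 1 for Dnmt1 and 2.71 times for Uhrf1. Both starved libraries of Cycle 2 lay above both of Cycle 1 for each gene. No test was made on these starved values alone. The 14 replication genes were also higher in starved Cycle 2 cells, 14 of 14, with a median ratio of 2.34 and a range of 1.47 to 4.07. Over the 11245 genes with a signal of 50 or more in either Cycle the median ratio was 0.976, and 5263 of them were higher in Cycle 2.

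Dnmt3a (chr12:3806007-3914443, plus strand) was at 982 and 1087 in starved Cycle 1 cells and at 654 and 675 in Cycle 2, a ratio of 0.643. Dnmt3b (chr2:153475186-153513466, plus strand) was low in all 4 starved libraries, at 49.6 and 38.3 in Cycle 1 and 36.2 and 37.9 in Cycle 2. The ranges of the 2 Cycles did not overlap for Dnmt3a, nor for Dnmt3b, where they came within 1 unit of each other. Tet1 (chr10:62267318-62361866, minus strand) was at 110 and 171 in Cycle 1 and at 75.4 and 114 in Cycle 2. Tet2 (chr3:133126643-133207354, minus strand) was at 234 and 269 and then at 204 and 231. Tet3 (chr6:83312367-83391672, minus strand) was at 464 and 573 and then at 362 and 430. The ranges of Tet1 overlapped between the Cycles, and those of Tet2 and Tet3 did not. Every such range, those of Dnmt1 and Uhrf1 included, held only 2 libraries, and the share of all genes without overlap was not counted.

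Per kilobase of the longest coding transcript, Dnmt1 was the highest of the 7 genes before serum. Its signal per kilobase was 176 in Cycle 1 and 319 in Cycle 2. In Cycle 1 it was followed by Dnmt3a at 107, Uhrf1 at 63.4, Tet3 at 47.6 and Tet2 at 27.4, all as signal per kilobase. In Cycle 2 Uhrf1 stood second at 172, ahead of Dnmt3a at 68.6, Tet3 at 36.3 and Tet2 at 23.7. Dnmt3b and Tet1 came last, at 10.2 and 9.77 in Cycle 1, where their starved libraries overlapped, and at 8.58 and 6.59 in Cycle 2. At 15 to 18 h the signal per kilobase of Dnmt1 was 544 and 419 in the 2 Cycles, and that of Uhrf1 was 305 and 205, so that Uhrf1 stood second in both. The deposited rows average over transcripts, so lengths and hence these levels are approximate.

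**Figure D1:**
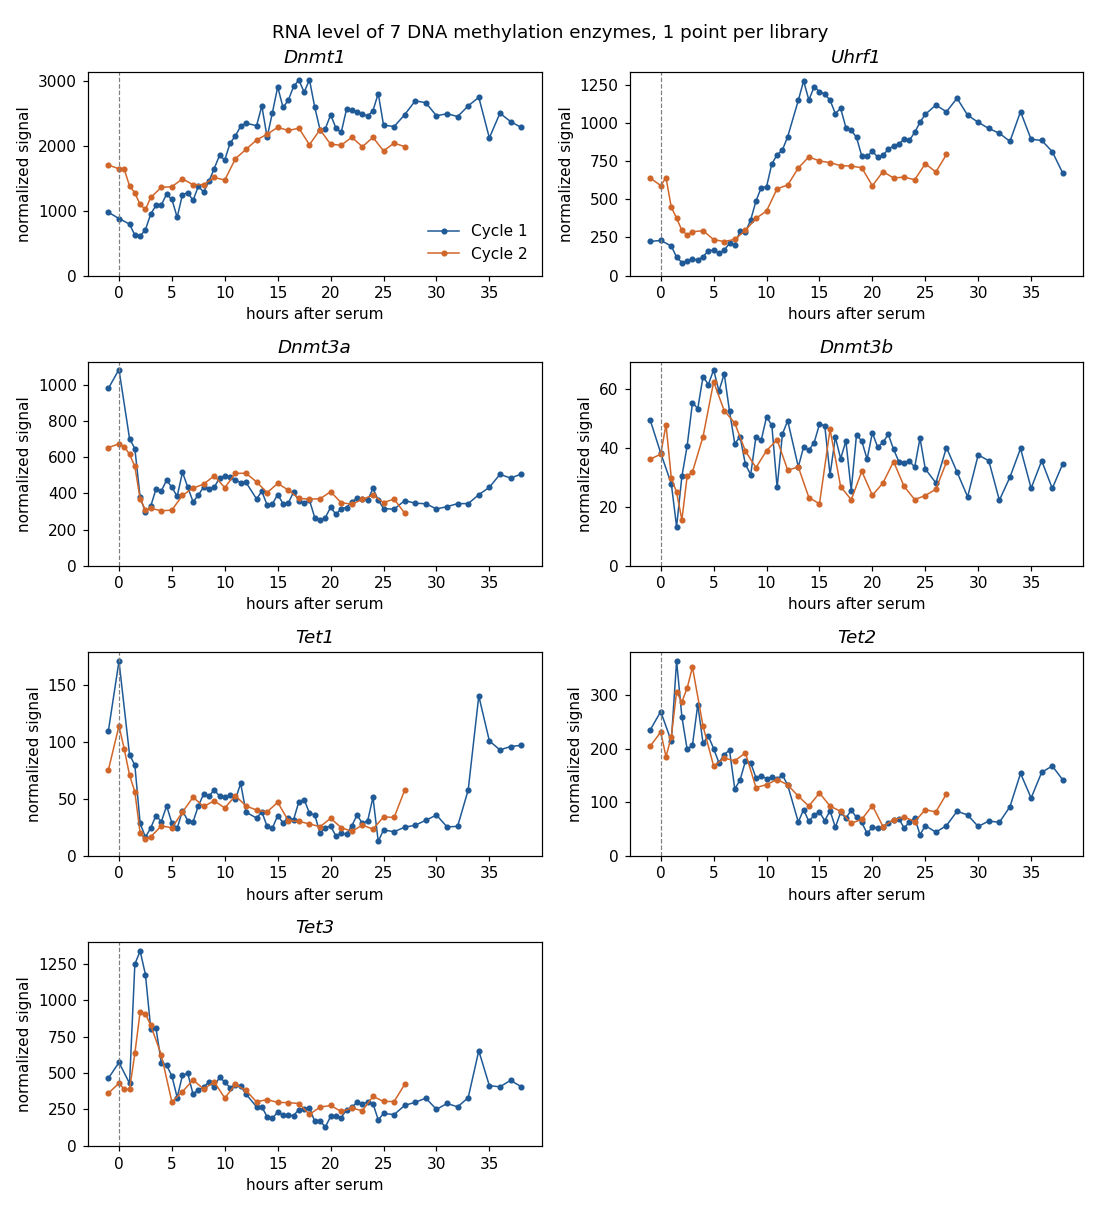
Normalized signal (y axis, starting at 0) of each enzyme against hours after serum (x axis), with 1 point per library, Cycle 1 in blue and Cycle 2 in orange, and serum addition at the dashed line. Dnmt1 and Uhrf1 pass through a low by 6 h and climb around 11 h, Tet3 peaks at 2 h, and Tet1 and Dnmt3a drop within 3 h in both Cycles.

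The maintenance genes rose from 11 h on, and Dnmt3a and the Tet genes were lower by then. Differences from the starved cells were tested with limma on log2(signal + 1), as the mean of the shared hours of a window against the 4 starved libraries, with Benjamini-Hochberg adjustment over all 15895 genes and a call at an adjusted p under 0.05. In the window from 15 to 18 h, 2 of the 7 enzymes rose, Dnmt1 and Uhrf1, against 22.4% of all genes, and 4 fell, Dnmt3a, Tet1, Tet2 and Tet3, against 31.3% of all genes. The median change of all genes in this window was -0.12 on the log2 scale. The same 2 genes rose and the same 4 fell at 11 to 14 h, 19 to 23 h and 24 to 27 h, where 22.2%, 24.2% and 22% of all genes rose and 31.1%, 34.4% and 34.9% fell. At 4 to 6 h, 0 of the 7 rose (18.4% of all genes) and 3 fell (36.6%), Uhrf1, Dnmt3a and Tet1, and at 7 to 10 h 0 rose (20.4%) and 3 fell (32.8%), Dnmt3a, Tet1 and Tet2. At 4 to 6 h limma gave an unadjusted p under 0.05 to 1 member with a positive change, Dnmt3b, and at 7 to 10 h to 0.

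Dnmt1 first dipped and then climbed above its starved level. In Cycle 1 it reached its lowest signal, 608, at 2 h and its highest, 3027, at 18 h. In Cycle 2 it was lowest at 2.5 h, at 1021, and highest at 15 h, at 2290. In the 15 to 18 h window the 7 libraries of Cycle 1 ranged from 2598 to 3027 with a median of 2917, and the 4 of Cycle 2 from 2022 to 2290 with a median of 2259. All 11 stood above all 4 starved libraries. The log2 change was 1.02 ± 0.19 (SE, 8 libraries at 4 shared hours; limma, adjusted p = 2.85e-05). The windows 11 to 14 h, 19 to 23 h and 24 to 27 h gave 0.76, 0.84 and 0.82, each a call (limma, adjusted p at most 0.000953). At 4 to 6 h and 7 to 10 h the mean log2 changes of 0.04 and 0.22 were not called, and the Cycles had opposite signs, 0.34 and 0.64 in Cycle 1 against -0.25 and -0.21 in Cycle 2. Taken alone, the fall of Cycle 2 at 4 to 6 h and the rise of Cycle 1 at 7 to 10 h were called (limma, adjusted p = 0.0398 and 0.00111). In fits of 1 Cycle alone, here and below, successive hours stood as replicates and are not independent. The main fits also treated the 4 starved libraries, 2 from each Cycle, and the hours of a window as independent, which they are not. Deviations between the Cycles correlated over pairs of hours with a median r of 0.423. At 1 to 3 h the log2 change was -0.42 (limma, adjusted p = 0.0542), and with Cycle as a block the adjusted p was 0.0490.

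Uhrf1 also passed through an early low and then climbed. In Cycle 1 it was at 85.4 at 2 h and at 1279 at 13.5 h, and in Cycle 2 at 223 at 6 h and at 796 at 27 h. The 15 to 18 h libraries ranged from 956 to 1209 with a median of 1099 in Cycle 1 and from 720 to 753 with a median of 732 in Cycle 2. Both ranges lay above all 4 starved libraries. The log2 change was 1.26 ± 0.36 (SE; limma, adjusted p = 0.00339), but it rested on Cycle 1, since Cycle 2 alone gave 0.25 (limma, adjusted p = 0.306). Uhrf1 also rose at 11 to 14 h, 19 to 23 h and 24 to 27 h, by 1.11, 0.97 and 1.20 on the log2 scale (limma, adjusted p at most 0.0161). These rises too rested on Cycle 1, with 0.09, 0.08 and 0.20 in Cycle 2 alone (limma, adjusted p at least 0.433). The calls at 11 to 14 h and 19 to 23 h were lost without the -1 h library of Cycle 1 (0.86 and 0.73, limma, adjusted p = 0.0681 and 0.107) and without its 0 h library (0.87 and 0.74, limma, adjusted p = 0.0656 and 0.104). At 7 to 10 h the mean change, -0.13, was not called and covered 0.65 in Cycle 1 and -0.92 in Cycle 2. Taken alone, that fall of Cycle 2 was called (limma, adjusted p = 0.000386) and the rise of Cycle 1 was not (limma, adjusted p = 0.0674). Uhrf1 fell by 0.94 on the log2 scale both at 1 to 3 h and at 4 to 6 h (limma, adjusted p = 0.0244 and 0.0337). In Cycle 1 alone the fall at 4 to 6 h was not called (-0.58, limma, adjusted p = 0.119). The call at 1 to 3 h was lost without the -1 h library of Cycle 2 (-0.68, limma, adjusted p = 0.145) and without its 0 h library (-0.72, limma, adjusted p = 0.124), and so was the call at 4 to 6 h (limma, adjusted p = 0.156 and 0.136). With TMM factors neither fall was called (-0.68 and -0.73, limma, adjusted p = 0.109 and 0.0986).

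The maintenance pair also rose when set against the early window in place of starved cells. Between 4 to 6 h and 15 to 18 h Dnmt1 rose by 0.98 ± 0.17 and Uhrf1 by 2.20 ± 0.31 on the log2 scale (SE; limma, adjusted p = 9.37e-06 and 6.25e-07), and 30.5% of all genes rose in this comparison. Dnmt3b, Tet2 and Tet3 fell in it, by 0.90, 1.21 and 0.84 on the log2 scale (limma, adjusted p at most 0.000239), against 17.9% of all genes. Dnmt3a and Tet1 were not called, with changes of -0.02 and 0.21. Between 15 to 18 h and 24 to 27 h limma called 0 of the 7 genes, where it called 0.673% of all genes up and 2.35% down, and 0 of the 7 had an unadjusted p under 0.05.

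The hour at which each gene first reached the midpoint between its early low and its later high was read on the shared hours. It was 11 h for Dnmt1 and for Uhrf1 in both Cycles. The 14 replication genes, such as the helicase subunit Mcm3 and the nucleotide reductase subunit Rrm2, had midpoints from 9 to 13 h in Cycle 1, with a median of 11.5 h, and from 11 to 14 h in Cycle 2, with a median of 12 h. Of these, 4 came before Dnmt1 in Cycle 1 and 0 in Cycle 2. The hours are a description of single courses read at the shared hours, with no test. Between the shared hours, Cycle 1 passed these midpoints sooner. Dnmt1 was at 1857 at 9.5 h against a midpoint of 1817, and at 1788 at 10 h. Uhrf1 was at 735 at 10.5 h against a midpoint of 647. The replication genes were not read between the shared hours.

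**Figure D2:**
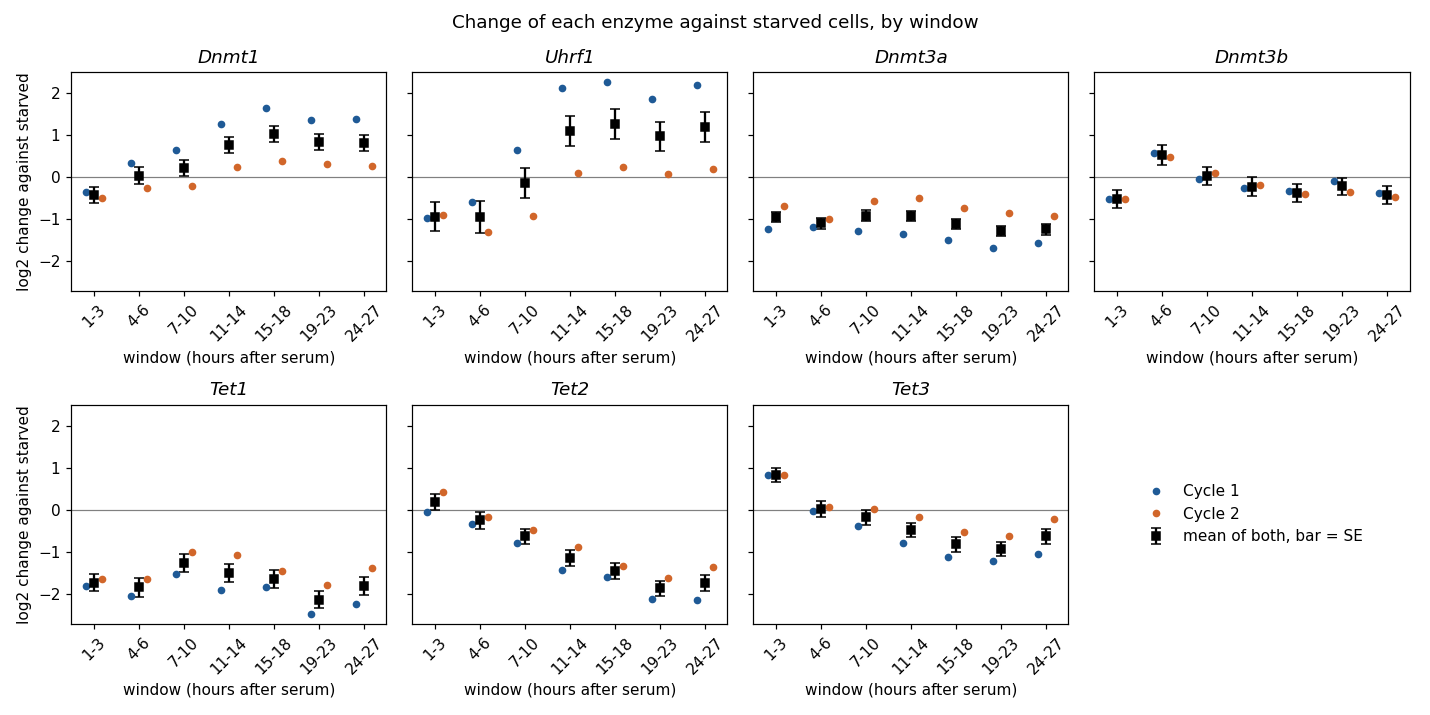
Log2 change of the normalized signal against starved cells (y axis) in 7 windows of hours after serum (x axis) for each enzyme, with the mean of both Cycles as black squares with SE bars and each Cycle as a blue (1) or orange (2) point. Dnmt1 and Uhrf1 lie above 0 in both Cycles from 11 h on, with Cycle 1 above Cycle 2, and Dnmt3a and Tet1 lie below 0 in every window.

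The rise of both maintenance genes over starved cells was smaller in Cycle 2 than in Cycle 1. Dnmt1 changed at 15 to 18 h by 1.65 on the log2 scale in Cycle 1 and by 0.39 in Cycle 2, a difference of -1.26 ± 0.18 (Cycle 2 minus Cycle 1, SE; limma interaction, adjusted p = 6.36e-07). Uhrf1 changed by 2.27 and 0.25, a difference of -2.02 ± 0.36 (limma interaction, adjusted p = 3.12e-05). Over all genes, 9.58% had a lower and 8.05% a higher change in Cycle 2. In Cycle 1 the signal was more than 2 times its starved mean in 42 of 61 libraries after serum for Dnmt1 and in 45 for Uhrf1, and in Cycle 2 in 0 of 30 for either gene. The level at 15 to 18 h differed less between the Cycles than did the starved level given above, with Cycle 1 now the higher. Successive hours of a course stood as replicates in this test and are not independent.

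For the other 5 genes the difference between the Cycles was not called. Dnmt3a fell by 1.50 on the log2 scale in Cycle 1 and by 0.72 in Cycle 2, a difference of 0.77 ± 0.32 (SE; limma interaction, adjusted p = 0.0907). With every library of the window, those between the shared hours included, it was 0.78 (limma interaction, adjusted p = 0.0441). Dnmt3b, Tet1, Tet2 and Tet3 differed by -0.07, 0.37, 0.26 and 0.58 on the log2 scale, with SE of 0.43, 0.64, 0.37 and 0.42 (limma interaction, adjusted p at least 0.379).

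**Figure D3:**
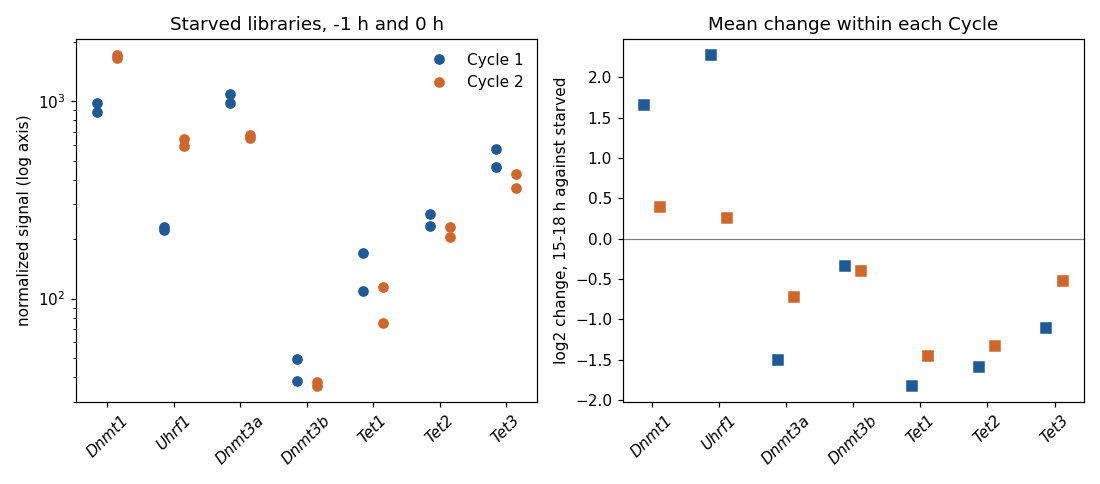
Left, normalized signal (log axis) of each enzyme in the -1 h and 0 h libraries of Cycle 1 (blue) and Cycle 2 (orange); right, mean log2 change at 15 to 18 h against the starved libraries of the same Cycle. Starved Dnmt1 and Uhrf1 are higher in Cycle 2 (1.81 and 2.71 times), where their changes, 0.39 and 0.25, are smaller than the 1.65 and 2.27 of Cycle 1.

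Of the de novo enzymes, Dnmt3a fell early and stayed low. Dnmt3a was at 703 at 1 h, 378 at 2 h and 297 at 2.5 h in Cycle 1, and at 617, 370 and 308 at the same hours of Cycle 2. Its lowest signal was 253 at 19 h in Cycle 1 and 291 at 27 h in Cycle 2. At 15 to 18 h it ranged from 344 to 408 in Cycle 1 and from 369 to 455 in Cycle 2, below all 4 starved libraries. The log2 change was -1.11 ± 0.13 (SE; limma, adjusted p = 9.50e-09). It was called lower in all 7 windows, with log2 changes from -0.91 at 7 to 10 h to -1.27 at 19 to 23 h. In Cycle 2 alone the call at 11 to 14 h was lost (-0.50, limma, adjusted p = 0.0516). The signal was under 0.5 of the starved mean in 58 of 61 libraries of Cycle 1 and in 5 of 30 of Cycle 2.

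Dnmt3b had a brief dip and a brief peak, at a low signal throughout. In Cycle 1 it stood at 13.3 at 1.5 h and 66.6 at 5 h, and in Cycle 2 at 15.6 at 2 h and 62.5 at 5 h. These values rest on few reads, with a median of 39.0 per library for this gene. At 1 to 3 h Dnmt3b fell by 0.51 ± 0.21 on the log2 scale (SE; limma, adjusted p = 0.0493), a call lost without any of the 4 starved libraries (adjusted p 0.0592 to 0.176, limma). At 4 to 6 h the libraries ranged from 59.4 to 66.6 in Cycle 1 and from 43.9 to 62.5 in Cycle 2, and in each Cycle all were above the starved libraries of that Cycle. The log2 change there was 0.53 ± 0.23 (SE; limma, adjusted p = 0.0512), and with Cycle as a block the adjusted p was 0.0228, which is a call. In the 5 windows from 7 h on Dnmt3b was not called, with -0.37 ± 0.22 on the log2 scale at 15 to 18 h (SE; limma, adjusted p = 0.157).

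The 3 Tet genes took different paths in the first hours. At 1 to 3 h Tet3 rose, against 11.9% of all genes, and 4 of the 7 enzymes fell, Uhrf1, Dnmt3a, Dnmt3b and Tet1, against 35% of all genes. This window was sensitive to scaling. As deposited, 1884 genes rose and 5558 fell with a median change of -0.26, and with TMM factors 3330 rose and 3323 fell with a median of -0.02. Under TMM, 2 of the 4 falls were called, those of Dnmt3a and Tet1, and Tet3 still rose.

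Tet3 peaked at 2 h in both Cycles. The Cycle 1 libraries from 1 to 3 h, every 0.5 h, held 429, 1248, 1338, 1176 and 806. In Cycle 2 the same hours gave 388, 635, 920, 907 and 827. The peak was 2.58 and 2.32 times the starved mean, and the 1 h library of each Cycle did not exceed the higher of its starved pair. The log2 change at 1 to 3 h was 0.84 ± 0.17 (SE; limma, adjusted p = 0.000118). By 4 to 6 h the change was 0.02, and Tet3 then fell by 0.47, 0.82, 0.92 and 0.63 on the log2 scale in the windows from 11 to 27 h (limma, adjusted p at most 0.0235). The call at 11 to 14 h was lost with TMM factors (-0.37, limma, adjusted p = 0.0826), without the -1 h library of Cycle 1 (-0.46, limma, adjusted p = 0.0562) and without its 0 h library (-0.36, limma, adjusted p = 0.128). At 15 to 18 h it ranged from 208 to 262 in Cycle 1 and from 216 to 298 in Cycle 2, below all 4 starved libraries, and Cycle 2 alone gave -0.53 (limma, adjusted p = 0.121). In the other 3 of these windows Cycle 2 alone gave -0.16, -0.62 and -0.21, none of them called.

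Tet1 fell within 2.5 h in both Cycles. It was at 88.7 at 1 h, 28.5 at 2 h and 16.4 at 2.5 h in Cycle 1, and at 70.7, 19.9 and 14.8 in Cycle 2. The log2 change was -1.73 ± 0.21 at 1 to 3 h (SE; limma, adjusted p = 2.03e-08) and -1.64 ± 0.21 at 15 to 18 h (limma, adjusted p = 1.28e-07). It was called lower in all 7 windows, furthest at 19 to 23 h with -2.13. In Cycle 2 alone the calls at 7 to 10 h and 11 to 14 h were lost (-0.99 and -1.08, limma, adjusted p = 0.0655 and 0.0516). At 15 to 18 h the libraries ranged from 28.9 to 49.3 in Cycle 1 and from 28.0 to 47.0 in Cycle 2, below all 4 starved libraries. Tet1 had a median of 37.0 reads per library.

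Tet2 was not called in the first 2 windows and fell from 7 h on. Single libraries stood higher early, at 364 at 1.5 h in Cycle 1 and at 352 at 3 h in Cycle 2. The log2 change was 0.19 ± 0.18 at 1 to 3 h and -0.24 ± 0.20 at 4 to 6 h (SE), neither of them called (limma, adjusted p = 0.426 and 0.310). It then fell by 0.63, 1.15, 1.46, 1.86 and 1.74 on the log2 scale in the 5 windows from 7 to 27 h (limma, adjusted p at most 0.00564), of which the first was not called in Cycle 2 alone (-0.48, limma, adjusted p = 0.124). At 15 to 18 h the libraries ranged from 53.1 to 85.2 in Cycle 1 and from 60.5 to 117 in Cycle 2. The highest of these was below the lowest starved library, at 204.

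The change of each gene was then set against that of Dnmt1 in the same libraries, which does not depend on how a library was scaled. At 15 to 18 h, Uhrf1 changed by 0.24 ± 0.21 more than Dnmt1 on the log2 scale (SE; limma, adjusted p = 0.284), and the difference was not called. Dnmt3a changed by -2.13 relative to Dnmt1, Dnmt3b by -1.39, Tet1 by -2.66, Tet2 by -2.48 and Tet3 by -1.84 (limma, adjusted p at most 4.16e-05). Thus 5 of the 6 other enzymes were called lower than Dnmt1 and 0 higher. Of all genes, 78.8% were lower than Dnmt1 and 2.26% higher, so a lower change than that of Dnmt1 was shared with most of the table.

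The last hours of Cycle 1 had no counterpart in Cycle 2. The 5 libraries at 34 to 38 h were described beside the 5 at 25 to 29 h, windows chosen with the values known, with no replicate and no test. Tet1 ranged from 21.1 to 31.2 in the earlier hours and from 93.0 to 140 in the later, a ratio of 4.15. Tet2 ranged from 44.0 to 83.0 and then from 108 to 168, a ratio of 2.30. Tet3 ranged from 215 to 328 and then from 406 to 653, a ratio of 1.73.
Dnmt3a ranged from 313 to 361 and then from 393 to 507, a ratio of 1.39. These 4 genes stood higher at 34 to 38 h without overlap, as did 15.7% of all genes, while 7.95% stood lower without overlap. Tet1 at 34 h, 140, was at the mean of its starved libraries. Dnmt1, Uhrf1 and Dnmt3b overlapped between the hours, with ratios of 0.966, 0.794 and 1.04.

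**Figure D4:**
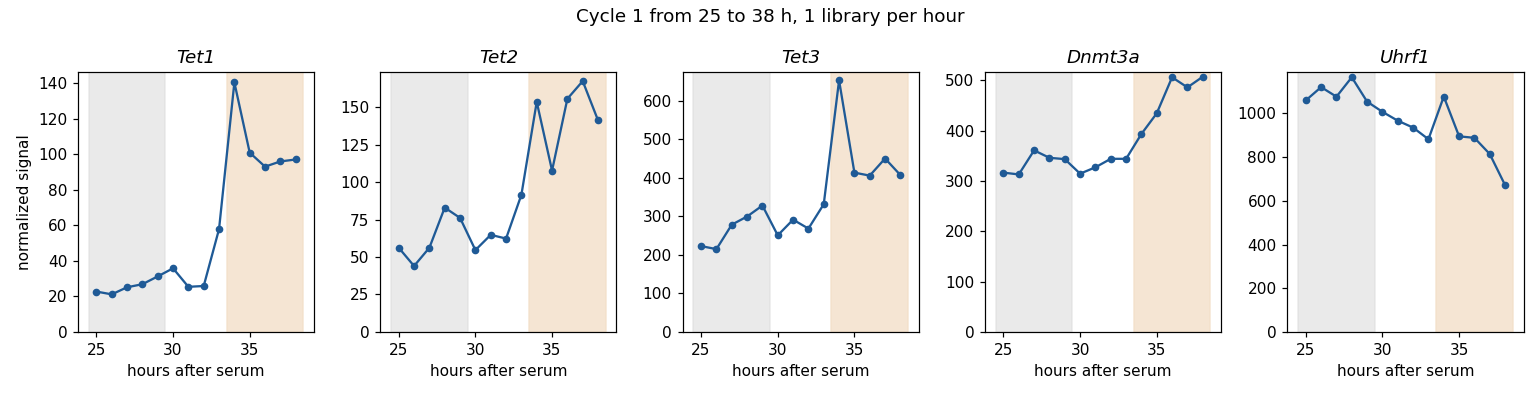
Normalized signal (y axis, starting at 0 in each panel) of Tet1, Tet2, Tet3, Dnmt3a and Uhrf1 in the Cycle 1 libraries from 25 to 38 h after serum (x axis), 1 library per hour, with 25 to 29 h in grey and 34 to 38 h in tan. The first 4 genes lie higher in the tan hours without overlap, with ratios of 4.15, 2.30, 1.73 and 1.39, and Uhrf1 overlaps.

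The genes most like each enzyme were ranked by the lower of the 2 Pearson correlations of log2(signal + 1) over the libraries after serum, 61 in Cycle 1 and 30 in Cycle 2. Only genes with a mean signal of 50 or more were ranked, 10484 or 10485 of 15895 for each enzyme. Neighbouring hours share the state of a course, so the points are not independent and no p is given. Nearest to Dnmt1 was Chaf1a (r of 0.970 and 0.974), a subunit of the chromatin assembly factor that works at replication forks, followed by Fignl1 and Wdhd1. Nearest to Uhrf1 was Timeless (r of 0.978 and 0.975), a replication fork protection protein, followed by Clspn, which acts in the replication checkpoint, and Mcm3. Dnmt1 and Uhrf1 themselves had r of 0.958 and 0.883.

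Among the nearest genes of all the enzymes, only Mcm3, beside Uhrf1, was on the list of 14 replication genes. The nearest genes of Dnmt3a were Iqsec2, Akap9 and Plce1, and those of Tet1 included Sh3d19 and Dact1, with r of at least 0.799 in each Cycle. Tet2 was nearest to Arl5b, Bach1 and Pdgfra, the last a growth factor receptor of fibroblasts, and Tet3 to Akap13, Tshz1 and Prickle2, with r of at least 0.907. Dnmt3b had no ranked gene with r above 0.671 in both Cycles, and its nearest genes were Prr5, Casp8 and Rps6kc1. Tet2 and Tet3 had r of 0.885 and 0.880 with each other, and r of -0.779 and -0.890 for Tet2 with Dnmt1.

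Genes that work with the enzymes changed in both directions. In the 15 to 18 h window, where 22.4% of all genes rose and 31.3% fell, 4 of 11 partners of maintenance methylation rose and 2 fell, with a median log2 change of 0.13 against -0.12 for all genes. Those that rose were Hells, a chromatin remodeller (1.09), Pcna, the replication clamp (1.02), Lig1, the ligase that joins Okazaki fragments (0.93), and Cdca7, a partner of Hells (0.90), all as log2 changes (limma, adjusted p at most 0.0127). Of 11 partners of de novo methylation and methyltransferases of histone H3, 5 rose and 2 fell, with a median of 0.47. They included Hells again, the H3K9 methyltransferases Suv39h2 (1.03) and Suv39h1 (0.97) and the H3K27 methyltransferase Ezh2 (0.82). In Cycle 2 alone the log2 change of these genes lay between -0.18 for Suv39h2 and 0.41 for Cdca7. The 14 replication genes had 13 rises and 0 falls with a median of 1.29, led by Rrm2 at 2.45, then the origin licensing factor Cdc6 at 1.98 and the cyclin Ccne1 at 1.79. Rrm2, Cdc6 and Ccne1 changed by 3.73, 3.09 and 2.76 in Cycle 1 and by 1.18, 0.86 and 0.82 in Cycle 2.

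Of 13 demethylation partners and base excision genes, 3 rose and 4 fell at 15 to 18 h, shares close to the 22.4% and 31.3% of all genes, with a median of -0.04. The stress-induced Gadd45a fell by 2.24 and its relative Gadd45g rose by 2.09 on the log2 scale, and the falls of Cxxc4, a CXXC protein that binds Tet2, and of the glycosylase Neil2 were 2.04 and 1.53 (limma, adjusted p at most 0.0132). The directions of Gadd45a and Gadd45g were the same in both Cycles, with -2.60 and -1.88 for the former and 2.23 and 1.96 for the latter. Cxxc4 changed by -2.28 in Cycle 1 and -1.80 in Cycle 2, and Neil2 by -2.41 and -0.66. Of 7 methyl-CpG readers, 1 rose and 2 fell, with a median of 0.11. Zbtb4 and Mbd3 had log2 changes of -1.03 and 0.42 (limma, adjusted p at most 0.0375). Of 9 methyl donor and 2-oxoglutarate enzymes, 2 rose and 4 fell, with a median of -0.14. Idh1, which makes 2-oxoglutarate in the cytosol, fell by 1.94 (limma, adjusted p = 3.43e-12) and D2hgdh by 0.80, while Mat2a, which makes the methyl donor S-adenosylmethionine, rose by 0.42 on the log2 scale.

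At 1 to 3 h, 11.9% of all genes rose and 35% fell. Of the maintenance partners 0 rose and 6 fell, of the de novo list 0 rose and 8 fell, of the demethylation list 2 rose and 6 fell, of the readers 1 rose and 5 fell and of the methyl donor list 1 rose and 5 fell. Their median log2 changes lay between -0.77 and -0.46, beside -0.26 for all genes. These counts carry the same dependence on scaling as those of the enzymes in that window.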

How the data were processed

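Polyadenylated RNA of mouse embryonic fibroblasts was sequenced as single-end reads of 50 bases. The deposited values are a normalized signal: the authors demultiplexed with CASAVA, aligned with STAR to mm9, counted reads on exons with HOMER, scaled each library to a common total and merged transcripts into 1 row per gene. The counting took both strands, so antisense reads cannot be told apart. Versions are not given in the sources used here. Of 96 columns, 95 were used and 1 matched no label exactly, though the labels hold a Cycle 1 library that it may belong to. The Cycle 1 column at 27 h lacked the last letter of its label and was paired with it because no other sample fitted. One read was worth 0.69 to 1.973 units, and 94.9% to 97.0% of low values were whole multiples of it, which gave the depths. Intervals for counting error were not computed.

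Fits used limma 3.58.1 in R 4.3.3 on log2(signal + 1), without trend or robust options, with 1 mean per shared hour over 62 libraries, and a call at an adjusted p under 0.05. Interactions used 1 mean per window and Cycle. Alternatives were Cycle as a block, a 0 h baseline, pseudocounts of 5 and 0.1, a minimum mean of 50, TMM and median-of-ratios factors, all libraries of a window, each starved library or Cycle left out, and a log2 change above 1. The replicate number is the Cycle, which per the labels marks a shared time course: over 465 pairs of hours the deviations correlated with a median r of 0.423, and 408 were over 0.1. In simulated tables of 15895 genes with 200 changed by 1 on the log2 scale, the 15 to 18 h contrast recovered 136 with 7 false calls, and 118 of 138 with a mean of 50 or more. The interaction recovered 58 with 2 false calls, and the ratio to Dnmt1 135 with 7. The simulated libraries were independent and had no Cycle effect, unlike these data, so the counts of false calls do not carry over to them.

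Named genes were the members, the 3 genes most like each, and up to 4 called genes with the largest 15 to 18 h change from each list, and 4 genes that this rule names are not reported here. The members, windows and lists were chosen with earlier results of these data known. Python 3.11.15, numpy 2.4.6, pandas 2.3.3 and matplotlib 3.10.9 were used.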

Additional observations from a re-analysis of the deposited data

Results flagged for a closer look

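The change of Dnmt1 at 15 to 18 h differed between the Cycles by -1.26 on the log2 scale (Cycle 2 minus Cycle 1; limma interaction, adjusted p = 6.36e-07), being positive in both. The change of Uhrf1 differed by -2.02 (limma interaction, adjusted p = 3.12e-05), also positive in both. For both genes the starved level was higher in Cycle 2, by 1.81 and 2.71 times, as it was for 14 of 14 replication genes, and the part of that baseline in the difference was not tested.

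Dnmt3b had 1 of its 4 starved libraries apart from the rest, the -1 h library of Cycle 1 at 49.6 beside 36.2 to 38.3. The gap was 0.847 of the whole range, above Dixon's 95% critical value for 4 samples. Chance flags about 1 group in 20, and 7 genes were looked at.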

How the results depend on the processing

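The 15 to 18 h rise of Dnmt1 and the falls of Dnmt3a and Tet2 kept direction and call under all alternatives run, and so did the fall of Tet1 except under the minimum mean of 50, which leaves Tet1 and Dnmt3b out of the test. Over all windows, 787 alternative values for single members kept direction and call, 43 lost the call, 14 gained it and 20 reversed. The reversals were among values not called in the report. Dnmt1 at 4 to 6 h was -0.023 with every library of the window, -0.25 without Cycle 1 and between -0.13 and 0.19 without 1 starved library. Tet3 at 4 to 6 h was -0.11 with the 0 h baseline, -0.016 without Cycle 2 and between -0.082 and 0.14 without 1 starved library. At 7 to 10 h, Uhrf1 was 0.0096 with TMM factors, 0.65 without Cycle 2 and between -0.38 and 0.12 without 1 starved library. Dnmt3b there was -0.037 with every library, -0.044 without Cycle 2 and between -0.023 and 0.12 without 1 starved library, Dnmt1 was -0.21 and Tet3 0.019 without Cycle 1. The others were Tet2 at 1 to 3 h without Cycle 2 (-0.055) and, without Cycle 1, Dnmt3a at 15 to 18 h against 4 to 6 h (0.28) and Tet1 at 24 to 27 h against 15 to 18 h (0.084). Uhrf1 minus Dnmt1 ranged from -0.14 without Cycle 1 to 0.62 without Cycle 2, where it was called (limma, adjusted p = 0.0217). The Dnmt3a difference between the Cycles was called with every library of the window (0.78).

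With Cycle as a block, Dnmt1 at 1 to 3 h (lower) and Dnmt3b at 4 to 6 h (higher, 1 member in place of 0) became calls, and no other call changed. That Dnmt3b call was also made, again 1 in place of 0, with a pseudocount of 5, TMM factors, median-of-ratios factors and every library of a window. Falls at 1 to 3 h numbered 2 in place of 4 with the 0 h baseline, TMM factors or median-of-ratios factors, which also ended the Uhrf1 call at 4 to 6 h, and the 0 h baseline gave 1 rise in place of 2 at 19 to 23 h. Asking for a log2 change above 1 left 0 rises and 1 fall at 1 to 3 h, 1 fall at 7 to 10 h, 1 rise and 2 falls at 11 to 14 h, 0 rises at 19 to 23 h, 1 rise at 24 to 27 h, and 1 rise and 1 fall at 15 to 18 h against 4 to 6 h. Leaving out a starved library or a Cycle gave 2 to 4 falls at 1 to 3 h, 0 to 1 rises at 4 to 6 h and at 7 to 10 h, 2 to 3 falls at 7 to 10 h, 1 to 4 falls at 11 to 14 h, and 1 to 2 rises in each window from 11 to 27 h. Uhrf1 was the rise lost at 11 to 14 h and 19 to 23 h. Within a Cycle alone, successive hours stood as replicates. Except where an alternative used fewer libraries or a stricter rule, the cause was not tested.

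Of all genes, the minimum mean of 50 left 3037 falls at 15 to 18 h and 3321 at 24 to 27 h, with fewer genes tested. The edgeR test on whole reads was not run, because rows averaged over transcripts do not give whole reads. Depth limits Dnmt3b and Tet1, with medians of 39.0 and 37.0 reads.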

Other observations

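The 24.5 h library of Cycle 1, an hour that Cycle 2 does not have, held low values of all 3 Tet genes. Of the fits, it entered only those with every library of a window. It was also among the 61 libraries of the correlations and of the counts above or below the starved mean. Tet1 was at 12.6 beside 51.3 at 24 h and 22.7 at 25 h, Tet2 at 39.2 beside 71.0 and 56.2, and Tet3 at 179 beside 290 and 223. Dnmt1 was at 2813 there, beside 2548 and 2325.

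At 27 h, the last hour of Cycle 2, Tet1 was at 57.7, Tet2 at 115 and Tet3 at 423, each above its value at 26 h (33.7, 81.8 and 304). The same hour of Cycle 1 gave 25.1, 56.2 and 278. These are single libraries.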
